A study of Sus scrofa with 12 samples.

Results

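Gonadal somatic transcription factors are the regulators of transcription that set and keep the identity of the supporting and interstitial cells of the gonad. The 10 members SOX9, SOX8, WT1, GATA4, GATA6, DMRT1, NR5A1, NR0B1, NR2F2 and TCF21 were found by gene symbol, and each matched 1 of the 21674 mRNAs of the deposited table. They were measured in whole testis of Hezuo (HZ) and Landrace (LC) boars by RNA-seq. The 12 libraries formed 4 groups of 3 separate boars each, with no treatment named for any group. Ha was HZ at 30 days of age, Hb was HZ at 120 days, La was LC at 30 days and Lb was LC at 120 days. The comparisons ask how testis RNA changes between these ages in each breed, in a study of the early sexual maturity of HZ boars, and how the breeds differ at each age.

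As background, Sertoli cells line the seminiferous tubules and nurse the germ cells, while Leydig cells between the tubules make androgens. SOX9 starts and, with SOX8, holds the Sertoli program, WT1 and DMRT1 keep it from sliding toward the ovarian one, and GATA4, GATA6 and NR5A1 act on promoters of both Sertoli hormones and steroid-making enzymes. NR0B1 binds NR5A1 and curbs it, and NR2F2 and TCF21 mark the interstitial progenitors from which Leydig and other stromal cells arise.

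The estimated mRNA counts summed to between 17165519 and 23758931 in a library, and the counts of single members ran from 3 for SOX8 to 5999 for NR5A1. Levels are CPM, counts per 1000000 of TMM-scaled library size, and FPKM where genes are compared with each other. A gene was called where the edgeR adjusted p was under 0.05 and the log2 fold change was beyond 1 in size. Each level is relative to all mRNA of the library. In whole tissue, fewer cells of a type, less RNA per cell and more RNA from other cells thus cannot be told apart. This holds for every level below. By histology the paper reported that Sertoli cells became more numerous with age, and the part of cell numbers in the levels was not tested. Replicates of each group differed by more than counting noise, with a chi-square per gene of 17.8 to 94.97 between 2 libraries.

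In its Leydig cell markers library Hb1 stood apart from Hb2 and Hb3. Its summed level of the 9 Leydig cell markers was 4915 CPM, against 641 CPM in Hb2 and 485 CPM in Hb3. INSL3, a Leydig hormone singled out after its values were seen, was at 2081, 97.4 and 34.8 CPM in Hb1, Hb2 and Hb3. In the same group Hb1 held the lowest CPM of SOX9, SOX8, WT1, GATA6, DMRT1 and TCF21 and the highest CPM of NR5A1 and NR0B1. Over all genes Hb2 was the farthest of the 3, with a chi-square per gene of 94.97 to Hb1 and 59.7 to Hb3, against 41.7 between Hb1 and Hb3.

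The 10 members together had a lower summed CPM at 120 days in both breeds. Their summed level was 806, 794 and 864 CPM in Ha and 271, 341 and 292 CPM in Hb. In LC boars the sum was 882, 990.1 and 960.4 CPM in La and 423, 432 and 415 CPM in Lb. Every library of 30 days lay above every library of 120 days, and each Lb library lay above each Hb library. From Ha to Hb, 6 of the 10 members were called (SOX8, GATA4, GATA6, NR5A1, NR2F2 and TCF21) and all 6 fell, while 51.4% of the 16548 mRNAs tested were called, 23.2% below 0 and 28.2% above 0. From La to Lb, 6 of 10 were called, with SOX8, GATA4, GATA6, NR5A1 and TCF21 lower and NR0B1 higher, beside 47.6% of 16637 mRNAs, 20.1% below 0 and 27.5% above 0. The share of members called was thus near the background in both breeds. Their median log2 fold change was -1.74 from Ha to Hb and -1.16 from La to Lb, while the medians of all tested mRNAs were -0.0197 and 0.0114. Without Hb1 the count called from Ha to Hb was also 6, beside 8279 of 16908 mRNAs.

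Between the breeds few members were called. At 30 days NR0B1 alone of 10 passed, lower in LC, where 7.62% of 15648 mRNAs were called, 4.01% below 0 and 3.6% above 0. At 120 days edgeR called 0 of the 9 members tested. DESeq2 also called 0, where it called 1176 of 16311 mRNAs. By edgeR 4 members (GATA4, DMRT1, NR5A1 and NR0B1) had an unadjusted p under 0.05. All 9 log2 fold changes of Lb over Hb were above 0, with a median of 0.45, where the median of all tested mRNAs was 0.00436. Of these 16311 mRNAs edgeR called 3.85%, 1.2% below 0 and 2.65% above 0. That background moved with single libraries, from 628 mRNAs called in all to 119 without Hb3, 182 without Lb1, 97 without Lb2, 139 without Lb3 and 1029 without Hb2. The difference between the breeds in their change with age was called for NR0B1 and DMRT1, 2 of 10, where 5.14% of 17332 mRNAs were called, 1.62% below 0 and 3.51% above 0. The mRNAs called there, 890 in all, ran from 437 to 1242 with 1 library left out, and the members called stayed at 2. Comparisons with a group in common share its libraries, so their values are given side by side and are not independent.

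Whether the CPM ranges of 2 groups overlap is given for each member below, and it is common among all mRNAs that they do not. From Ha to Hb 9 of 10 members did not overlap, all lower in Hb, beside 76.2% of mRNAs, 37.6% lower and 38.6% higher. From La to Lb all 10 did not, 8 lower and 2 higher in Lb, beside 75.9%, 37.3% lower and 38.6% higher. Between breeds 3 of 10 did not overlap at 30 days, 2 lower and 1 higher in LC, beside 41.8%, 21.6% lower and 20.2% higher, and 7 of 10 at 120 days, all higher in LC, beside 32.3%, 16.3% lower and 16.0% higher.

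Scaling bears on these directions. With library totals in place of TMM the median of all mRNAs moved to -0.32 from Ha to Hb and to -0.16 from La to Lb. Upper-quartile factors put it at -0.34 and -0.25, and log2(FPKM + 1) and log2(FPKM + 0.1) at -0.25 and -0.46 in HZ and at -0.15 and -0.26 in LC. For Lb over Hb it moved to 0.12 with log2(FPKM + 0.1), and for the difference between breeds to 0.17 with totals and 0.18 with log2(FPKM + 0.1). Relative to the median of all mRNAs, the members' median lay between -1.72 and -1.15 from Ha to Hb over TMM and these 4 scalings, and between -1.17 and -0.90 from La to Lb. No scaling turned the sign of any member in either age comparison. Of all calls from Ha to Hb, 54.8% were above 0, and 44.1% with totals, 43.7% with upper-quartile factors, 42.6% with log2(FPKM + 1) and 39.3% with log2(FPKM + 0.1). From La to Lb it was 57.7%, and 47.1% with upper-quartile factors and 46.9% with log2(FPKM + 0.1). For Lb over Hb it was 68.8%, and 79.8% and 79.0% with the FPKM settings. For the difference between breeds it was 68.4%, and 81.6% with totals.

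**Figure D1:**
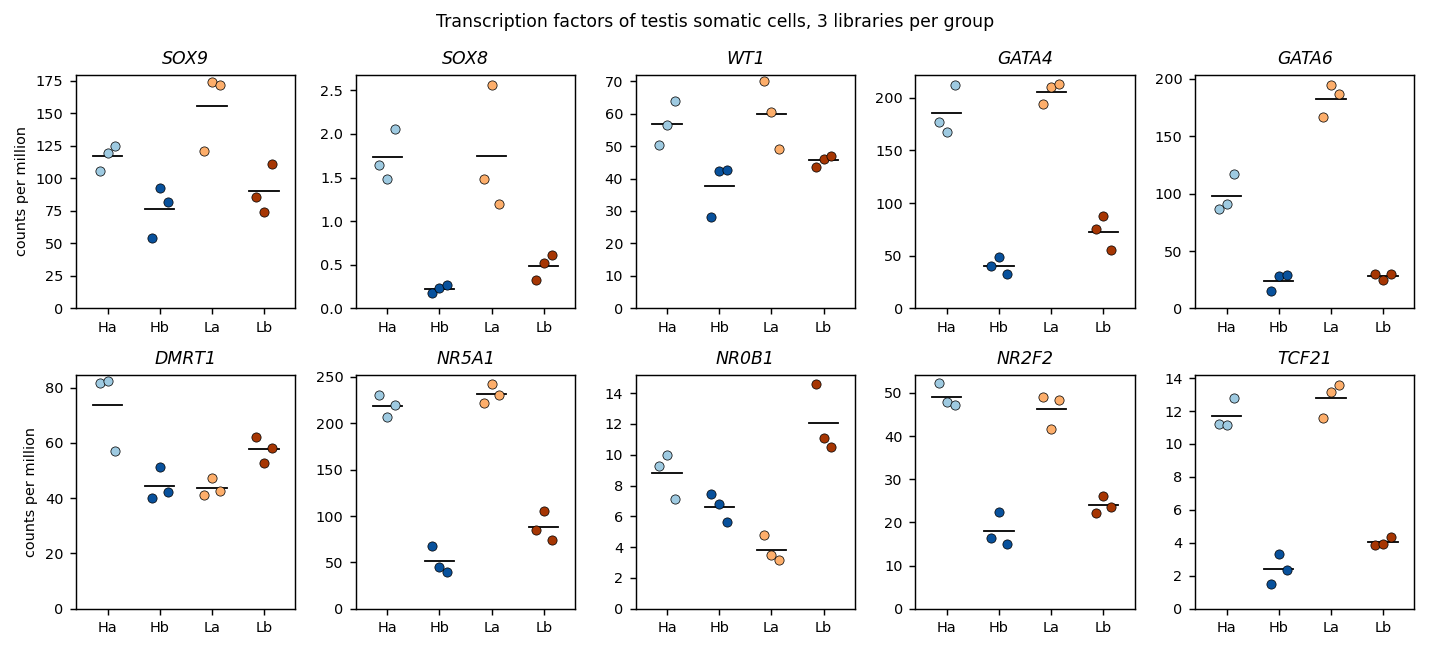
Level of each of the 10 transcription factors in CPM (vertical axis, linear, from 0) in each library of Ha, Hb, La and Lb, with 1 point per library and a bar at the group mean. WT1, GATA4, GATA6, NR5A1, NR2F2, TCF21 and SOX8 show both 30-day groups above both 120-day groups, while NR0B1 is highest in Lb and lowest in La.

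Among the Sertoli members, SOX9 is the factor that commits supporting cells to the Sertoli fate (chromosome 12, 8642154 to 8647315, build Sscrofa11.1, as for all positions). In HZ boars SOX9 stood at 106, 119.5 and 125 CPM in Ha and 54.4, 92.6 and 81.9 CPM in Hb. In LC boars it stood at 121, 174 and 172 CPM in La and 85.5, 74.2 and 111 CPM in Lb. All libraries of 30 days were above all of 120 days within each breed, while the breeds overlapped at both ages. The log2 fold change was -0.62 (SE 0.20, adjusted p = 0.0263) from Ha to Hb and -0.77 (SE 0.20, adjusted p = 0.00740) from La to Lb, so neither reached the fold threshold. With log2(FPKM + 1) in limma both passed it, at -1.07 and -1.04, and with log2(FPKM + 0.1) both did, at -1.13 and -1.08. With upper-quartile factors the LC value passed, at -1.03, and the HZ value of -0.92 did not. With library totals neither did, at -0.91 and -0.93. The median of all mRNAs was also lower with these scalings. The difference between breeds at 30 days was 0.41 (SE 0.15, adjusted p = 0.0821) and at 120 days 0.28 (SE 0.25, adjusted p = 0.506). With 1 library left out the latter ran from 0.0752 without Hb1 to 0.47 without Hb2.

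SOX8, which backs up SOX9 in Sertoli cells, was the least abundant member (chromosome 3, 40825151 to 40830085). It was at 1.65, 1.49 and 2.06 CPM in Ha and at 0.174, 0.232 and 0.264 CPM in Hb. La libraries held 1.48, 2.56 and 1.19 CPM and Lb libraries 0.324, 0.518 and 0.616 CPM. Neither breed showed any overlap between the ages, and every Lb library was above every Hb library. SOX8 fell by 2.93 on the log2 scale in HZ (7.61-fold; SE 0.42, adjusted p = 0.000654) and by 1.81 in LC (3.52-fold; SE 0.45, adjusted p = 0.00685). On log2(FPKM + 1), which flattens genes this low, the differences were -0.50 and -0.40 and were not called. At 120 days the filter on low counts left it out of the test between breeds. Without that filter the log2 fold change of Lb over Hb was 1.14 (SE 0.67, adjusted p = 0.354), and with all 12 libraries in one fit it was 1.10 (SE 0.48, adjusted p = 0.135), neither called. The log2 difference at 30 days was 0.00116.

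WT1, a zinc-finger factor that Sertoli cells need to stay Sertoli cells, differed less with age than SOX8 (chromosome 2, 28411467 to 28456007). Its CPM values were 50.2, 56.4 and 63.8 in Ha and 28.1, 42.4 and 42.5 in Hb. For LC boars they were 69.9, 60.5 and 49.1 in La and 43.5, 46.1 and 47.0 in Lb. Values at 120 days lay below those at 30 days in each breed, though the gap between the lowest La and the highest Lb library was narrow. WT1 had a log2 fold change of -0.59 (SE 0.19, adjusted p = 0.0272) from Ha to Hb and -0.38 (SE 0.15, adjusted p = 0.0450) from La to Lb, neither called, and over all alternatives the adjusted p of the latter ran from 0.00469 to 0.160. With upper-quartile factors the log2 fold changes were -0.90 and -0.64. Between breeds it was 0.0720 (SE 0.14, adjusted p = 0.756) at 30 days, with the libraries mixed, and 0.31 (SE 0.20, adjusted p = 0.358) at 120 days, with each Lb library above each Hb library. The value at 120 days ran from 0.13 without Hb1 to 0.43 without Hb2.

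DMRT1 keeps Sertoli cells male and is also made by spermatogonia, where it holds back entry into meiosis (chromosome 1, 220841485 to 220953442). HZ libraries held 81.6, 82.5 and 57.2 CPM at 30 days and 40.0, 51.3 and 42.1 CPM at 120 days. LC libraries held 41.2, 47.4 and 42.4 CPM at 30 days and 62.2, 52.8 and 58.1 CPM at 120 days. In CPM the ages were separate in both breeds but in opposite order, with Ha above Hb and La below Lb. In FPKM Ha was also above Hb, but La (15.3 to 17.8) and Lb (15.5 to 19.03) overlapped. At 30 days each Ha library was above each La library, and at 120 days each Hb library was below each Lb library. The log2 fold change was -0.73 (SE 0.18, adjusted p = 0.00851) in HZ and 0.42 (SE 0.12, adjusted p = 0.0131) in LC, and neither passed the fold threshold. With library totals or upper-quartile factors the HZ value was -1.03 or -1.04, and on log2(FPKM + 1) or log2(FPKM + 0.1) it was -1.14 or -1.202. All 4 passed, where the medians of all mRNAs were -0.32, -0.34, -0.25 and -0.46. The LC rise was smaller with other scalings, 0.25 (adjusted p = 0.110) with totals, 0.15 (adjusted p = 0.279) with upper-quartile factors, 0.0971 (adjusted p = 0.441) on log2(FPKM + 1) and 0.10 (adjusted p = 0.451) on log2(FPKM + 0.1), so whether DMRT1 rose in LC depends on the scaling. The 2 age differences themselves differed by 1.13 on the log2 scale (SE 0.22, adjusted p = 0.0154), which was called, also with each library left out in turn (1.05 to 1.32) and with each scaling (1.13 to 1.304). Between breeds the log2 fold change was -0.76 (SE 0.15, adjusted p = 0.0126) at 30 days and 0.41 (SE 0.17, adjusted p = 0.172) at 120 days.

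GATA4, a zinc-finger factor of Sertoli and Leydig cells that binds promoters of AMH and of steroid-making enzymes, lies at chromosome 14, 14858470 to 14938156. In Ha it was at 177, 168 and 212 CPM and in Hb at 40.2, 48.5 and 32.8 CPM. In La it was at 194, 211 and 213 CPM and in Lb at 75.4, 87.7 and 55.9 CPM. The lowest 30-day library was far above the highest 120-day library in both breeds. GATA4 fell by 2.19 on the log2 scale in HZ (4.58-fold; SE 0.18, adjusted p = 4.53e-05) and by 1.48 in LC (2.79-fold; SE 0.16, adjusted p = 5.38e-05). At 30 days the breeds overlapped in CPM but not in FPKM, where La was higher, and the edgeR log2 fold change was 0.15 (SE 0.10, adjusted p = 0.327). At 120 days each Lb library was above each Hb library, and the log2 difference of 0.89 (SE 0.22, adjusted p = 0.0577) was not called. It was called without Hb2 (1.06, adjusted p = 0.0340) and on log2(FPKM + 0.1) (1.01, adjusted p = 0.0272), with adjusted p from 0.00459 to 0.168 over all alternatives. The difference between breeds in the age change was 0.70 (SE 0.25, adjusted p = 0.115).

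GATA6 overlaps with GATA4 in its cells and targets (chromosome 6, 107282709 to 107314725). Its levels were 86.8, 90.7 and 117 CPM in Ha and 15.02, 27.9 and 29.1 CPM in Hb. They were 167, 195 and 187 CPM in La and 30.3, 24.9 and 30.4 CPM in Lb. La libraries were the highest, Ha libraries came next, and the 120-day libraries of both breeds were low and mixed. From Ha to Hb GATA6 fell by 2.04 (SE 0.27, adjusted p = 0.000426) on the log2 scale, and from La to Lb by 2.66 (SE 0.13, adjusted p = 6.37e-07), 4.10-fold and 6.33-fold. The breeds at 30 days differed by 0.89 (SE 0.13, adjusted p = 0.00363), short of the fold threshold. Without Ha3 that difference was 1.03 (adjusted p = 0.00115) and was called, with adjusted p from 1.22e-08 to 0.0230 over all alternatives. At 120 days it was 0.29 (SE 0.27, adjusted p = 0.537), with 0.0290 without Hb1 and 0.44 without Hb3. The difference between breeds in the age change was -0.65 (SE 0.31, adjusted p = 0.222).

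NR5A1, the nuclear receptor that switches on the enzymes of steroid synthesis, had the highest FPKM of the members at 30 days (chromosome 1, 265284491 to 265311547). HZ boars had 230.2, 207 and 219 CPM in Ha and 68.2, 45.3 and 40.2 CPM in Hb. LC boars had 222, 242 and 231 CPM in La and 84.7, 105 and 73.9 CPM in Lb. All 6 libraries of 30 days exceeded all 6 of 120 days, the breeds overlapped at 30 days, and each Lb library was above each Hb library. NR5A1 fell 4.27-fold in HZ, a log2 fold change of -2.09 (SE 0.21, adjusted p = 0.000124), and 2.61-fold in LC, -1.38 (SE 0.13, adjusted p = 3.29e-05). Breed differences were 0.0778 (SE 0.0785, adjusted p = 0.514) at 30 days and 0.83 (SE 0.22, adjusted p = 0.0701) at 120 days. The latter was called without Hb1, at 1.06 (adjusted p = 0.0355, with 0.00982 to 0.195 over all alternatives). The age change differed between breeds by 0.70 (SE 0.26, adjusted p = 0.125), not called, with adjusted p from 0.0136 to 0.258 over all alternatives.

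NR0B1, an orphan receptor that lacks a DNA-binding domain of the usual kind and represses NR5A1, lies at chromosome X, 26117874 to 26122951. Its CPM was 9.25, 10.001 and 7.11 in Ha and 7.42, 6.78 and 5.61 in Hb. The values were 4.79, 3.47 and 3.18 in La and 14.6, 11.06 and 10.5 in Lb. In CPM, Lb libraries were the highest of the 12 and La libraries the lowest, while Ha and Hb overlapped. In FPKM Ha (3.94 to 5.59) lay above Hb (2.2 to 2.9). NR0B1 rose 3.19-fold from La to Lb, a log2 fold change of 1.68 (SE 0.24, adjusted p = 0.000345). From Ha to Hb it was -0.41 (SE 0.23, adjusted p = 0.154) and was not called. That fall was larger with other scalings, with adjusted p under 0.05 but short of the fold threshold, -0.72 (adjusted p = 0.0278) with totals, -0.73 (adjusted p = 0.0224) with upper-quartile factors, -0.70 (adjusted p = 0.00615) on log2(FPKM + 1) and -0.87 (adjusted p = 0.00588) on log2(FPKM + 0.1). The difference between the 2 age changes was 2.07 (SE 0.33, adjusted p = 0.00740) and was called, with 1.91 to 2.27 when 1 library was left out. At 30 days NR0B1 was 2.31-fold lower in LC, -1.21 (SE 0.23, adjusted p = 0.0105), and on log2(FPKM + 1) the difference was -0.94 and not called. At 120 days the order of the breeds was the other way round, with each Lb library above each Hb library, but 0.91 (SE 0.24, adjusted p = 0.0643) was not called.

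NR2F2, an orphan receptor of interstitial progenitors and stromal cells, lies at chromosome 7, 83076119 to 83090250. It was at 52.3, 47.8 and 47.3 CPM in Ha and 16.5, 22.4 and 15.04 CPM in Hb. In LC boars it was at 49.0, 41.6 and 48.4 CPM in La and 22.2, 26.2 and 23.6 CPM in Lb. The ages were apart in both breeds and the breeds overlapped in CPM at both ages, while in FPKM Lb lay above Hb by a narrow gap. NR2F2 fell 2.73-fold in HZ (-1.45 (SE 0.18, adjusted p = 0.000337) on the log2 scale). In LC the log2 fold change of -0.93 (SE 0.13, adjusted p = 0.000284) was just short of the fold threshold. It passed without La2 (-1.02, adjusted p = 0.000783) and without Lb2 (-1.004, adjusted p = 0.000560). It also passed with library totals (-1.10), upper-quartile factors (-1.196), log2(FPKM + 1) (-1.06) and log2(FPKM + 0.1) (-1.16). Over all alternatives its adjusted p ran from 1.34e-08 to 0.00202. The difference between the breeds in the age change was 0.50 (SE 0.22, adjusted p = 0.188) and was not called. At 30 and at 120 days the breeds differed by -0.0875 (SE 0.10, adjusted p = 0.578) and 0.45 (SE 0.21, adjusted p = 0.231).

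TCF21, a helix-loop-helix factor of interstitial progenitors, lies at chromosome 1, 29975280 to 29978273. Its CPM in Ha was 11.2, 11.2 and 12.8 and in Hb 1.51, 3.34 and 2.37. The CPM in La was 11.6, 13.2 and 13.6 and in Lb 3.89, 3.91 and 4.36. Both 30-day groups were well above both 120-day groups, and Hb lay below Lb without overlap. TCF21 fell 4.84-fold in HZ, -2.28 (SE 0.32, adjusted p = 0.000560) on the log2 scale, and 3.12-fold in LC, -1.64 (SE 0.19, adjusted p = 9.23e-05). Breed differences of 0.12 (SE 0.14, adjusted p = 0.563) at 30 days and 0.78 (SE 0.38, adjusted p = 0.244) at 120 days were not called. Nor was the difference between breeds in the age change, 0.62 (SE 0.35, adjusted p = 0.310), which ran from 0.39 without Hb1 to 0.94 without Hb2.

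**Figure D2:**
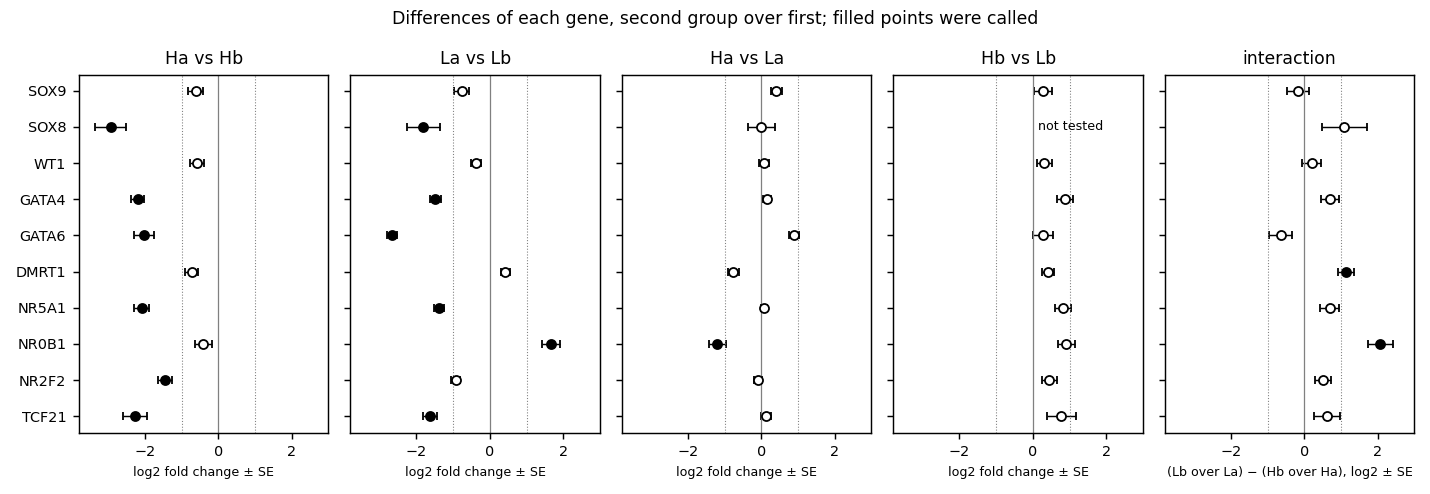
Log2 fold change (horizontal axis) of each gene with age in each breed, with breed at each age (second group of the panel title over the first) and for the difference between the breeds in the age change, with bars of 1 SE and dotted lines at -1 and 1. Filled points were called, 6 in each age comparison, and SOX8 was left out of Hb vs Lb by the filter on low counts.

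By FPKM, which divides by transcript length, the order of the members changed with age. In Ha the order was NR5A1 (58.5 ± 3.02, mean ± SD, n = 3), GATA4 (40.7 ± 3.84), DMRT1 (28.3 ± 5.59), SOX9 (27.1 ± 2.26), GATA6 (25.7 ± 4.49), WT1 (17.4 ± 2.63), NR2F2 (15.1 ± 1.005), TCF21 (7.64 ± 0.572), NR0B1 (4.89 ± 0.854) and SOX8 (0.480 ± 0.0819). DMRT1 overlapped there with SOX9 and SOX9 with GATA6, as did WT1 with NR2F2, and the other neighbours did not. In Hb the order was SOX9 (12.8 ± 4.09), DMRT1 (12.2 ± 2.56), NR5A1 (9.65 ± 2.30), WT1 (9.45 ± 2.66), GATA4 (7.53 ± 1.40), GATA6 (4.53 ± 1.58), NR2F2 (4.15 ± 1.19), NR0B1 (2.62 ± 0.369), TCF21 (1.14 ± 0.517) and SOX8 (0.0433 ± 0.0115). Among the first 5 each overlapped with its neighbours, and so did GATA6 with NR2F2, while GATA4 and GATA6 did not overlap, so NR5A1 no longer stood clear of the Sertoli members.

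In La the FPKM order was NR5A1 (60.5 ± 2.98), GATA4 (50.3 ± 4.07), GATA6 (46.8 ± 4.07), SOX9 (35.4 ± 7.03), WT1 (18.3 ± 2.33), DMRT1 (16.4 ± 1.26), NR2F2 (14.1 ± 1.34), TCF21 (8.16 ± 0.748), NR0B1 (2.07 ± 0.444) and SOX8 (0.473 ± 0.191). Only GATA4 with GATA6 and WT1 with DMRT1 overlapped among these neighbours. In Lb it was NR5A1 (18.6 ± 2.52), DMRT1 (17.6 ± 1.86), SOX9 (16.8 ± 4.57), GATA4 (15.2 ± 2.54), WT1 (12.6 ± 1.22), NR2F2 (6.26 ± 0.630), GATA6 (5.94 ± 0.903), NR0B1 (5.33 ± 0.826), TCF21 (2.11 ± 0.277) and SOX8 (0.110 ± 0.04). Among NR5A1, DMRT1, SOX9, GATA4 and WT1 each overlapped with its neighbours, as did NR2F2 with GATA6 and GATA6 with NR0B1. DMRT1 was thus ranked below WT1 in La and next to NR5A1 in Lb, and GATA6 moved the other way.

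Ratios of 2 members within a library do not depend on its scaling, and 4 were compared between ages and between breeds, 8 tests in all, with two-sided exact permutation tests of the log2 ratio in strata. With 400 arrangements the smallest p was 0.005. NR5A1 to NR0B1, activator to repressor, was 24.8, 20.7 and 30.8 in Ha and 9.16, 6.66 and 7.13 in Hb. It was 46.0, 69.4 and 72.1 in La and 5.79, 9.47 and 7.005 in Lb. All 30-day libraries were above all 120-day libraries, with La on top, and the 120-day groups were mixed. The mean log2 difference with age was -2.40 (exact p = 0.005, adjusted p = 0.04), and with breed 0.61 (exact p = 0.075, adjusted p = 0.144).

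SOX9 to SOX8 was 63.5, 79.4 and 60.3 in Ha and 268, 363 and 276 in Hb. It was 80.5, 67.2 and 142 in La and 247, 137 and 173 in Lb. The ages did not overlap in HZ and overlapped in LC, where La3 exceeded Lb2. The mean log2 difference with age was 1.57 (exact p = 0.01, adjusted p = 0.04), and without La1, La2, Lb1 or Lb3 it was 1.52, 1.45, 1.45 and 1.58 with an adjusted p of 0.06 by the exact permutation test (0.02 to 0.06 over all alternatives). SOX8 counts at 120 days were from 3 to 12 in a library, so this ratio rests on few counts.

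GATA4 to GATA6 was 2.03, 1.85 and 1.81 in Ha and 2.67, 1.74 and 1.13 in Hb. It was 1.16, 1.08 and 1.14 in La and 2.49, 3.52 and 1.84 in Lb. La was below Ha and below Lb without overlap, while Hb ran from within La to within Lb. DMRT1 to SOX9 was 0.769, 0.690 and 0.457 in Ha and 0.735, 0.554 and 0.515 in Hb. It was 0.340, 0.273 and 0.247 in La and 0.727, 0.711 and 0.524 in Lb. La was lower than each other group, and those overlapped among themselves. The exact permutation tests of these 2 ratios gave adjusted p from 0.144 to 0.76, and whether the age difference of a ratio differed between breeds was not tested.

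**Figure D3:**
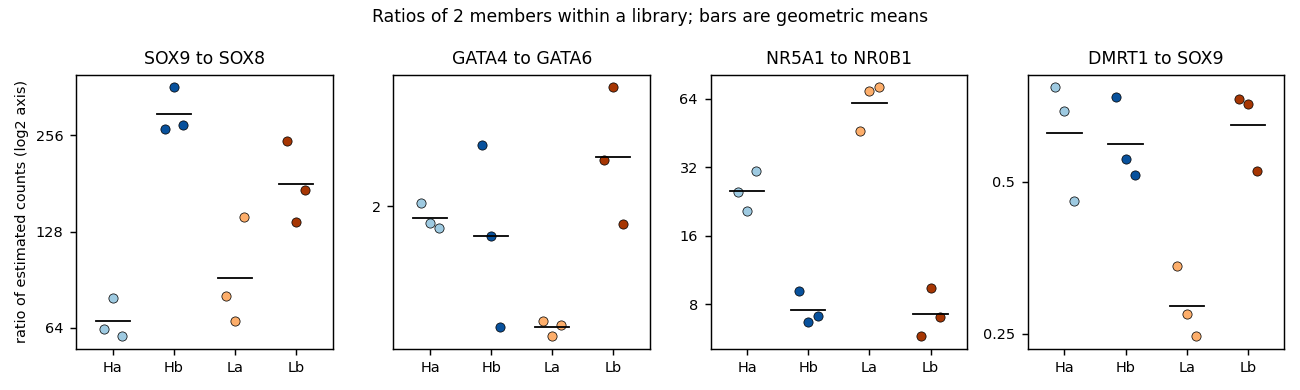
Ratio of estimated counts of 2 members in each library (vertical axis, log2 scale) by group, with 1 point per library and bars at geometric means. NR5A1 to NR0B1 lies between 20.7 and 72.1 at 30 days and between 5.79 and 9.47 at 120 days.

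Markers of the cell types of the testis moved with these results, and their part in them was not tested. Calls are by edgeR, and the DESeq2 count stands beside a count where it differs or where edgeR called 0. The summed CPM of the 10 Sertoli cell markers was 1122, 1035 and 1407 in Ha, 531, 1071 and 629.9 in Hb, 2419, 2931 and 2680.4 in La and 715, 772 and 779 in Lb. In HZ the ages overlapped, since Hb2 exceeded Ha2, and in LC they did not. Within that sum PTGDS had a mean of 34.7 CPM in Ha and 380 CPM (SD 230) in Hb. Its FPKM was 162 in Hb1, 576 in Hb2 and 239 in Hb3, and the sum without PTGDS was not taken. By FPKM INHA was the highest of the list in each La library and PTGDS in each Hb library, while INHA or CLDN11 led in Ha and PTGDS or CLDN11 in Lb. Of 9 markers tested, 5 fell and 1 rose in each breed, and the median was -1.39 from Ha to Hb and -1.17 from La to Lb. AMH, the hormone of immature Sertoli cells, was at 131, 133 and 263 CPM in Ha and 2.90, 8.13 and 6.53 CPM in Hb, and at 569, 796 and 695 CPM in La and 2.54, 7.15 and 15.2 CPM in Lb. Its log2 fold change was -4.91 (SE 0.47, adjusted p = 9.21e-05) in HZ and -6.35 (SE 0.58, adjusted p = 2.31e-05) in LC. INHBB, a subunit of activin and inhibin, changed by -1.90 (SE 0.14, adjusted p = 3.16e-05) in HZ, and INHA by -3.07 (SE 0.33, adjusted p = 5.86e-05) in LC, while PTGDS, a prostaglandin synthase, rose by 3.45 (SE 0.44, adjusted p = 0.000372) in HZ and by 2.95 (SE 0.21, adjusted p = 4.86e-06) in LC. At 30 days 4 of 9 were higher in LC, with INHA at 1.51 (SE 0.19, adjusted p = 0.00235) and the FSH receptor FSHR at 1.22 (SE 0.15, adjusted p = 0.00246). At 120 days KITLG, the ligand of KIT on germ cells, was higher in LC by 1.04 (SE 0.19, adjusted p = 0.0275), the 1 edgeR call of 9 (DESeq2 called 2). GDNF, which sustains spermatogonial stem cells, had the 1 difference between breeds in the age change that edgeR called (DESeq2 called 3), -1.90 (SE 0.49, adjusted p = 0.0414).

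The 9 Leydig cell markers summed to 14265, 13764 and 12682 in Ha, 4915, 641 and 485 in Hb, 19738, 13274 and 16215 in La and 6389.6, 9323 and 4151 in Lb in CPM. By FPKM CYP17A1 was the highest in each La library and INSL3 in each Lb library. In Ha it was CYP17A1 or INSL3, and in Hb it was INSL3 in Hb1 and Hb2 and HSD17B3 in Hb3. In the sum Hb2 and Hb3 were the lowest of the 12 libraries, and Hb1 lay within the range of Lb. From Ha to Hb 6 fell and 3 were not called, with a median of -2.83, and from La to Lb 7 fell and 2 were not called (DESeq2 called 6), with a median of -1.45. SCARB1, the receptor that takes up cholesterol from lipoproteins, and HSD3B1, a steroid dehydrogenase, changed by -3.09 (SE 0.39, adjusted p = 0.000334) and -1.60 (SE 0.21, adjusted p = 0.000417) in HZ. HSD17B3, which makes testosterone, and CYB5A, a helper of CYP17A1, changed by -1.02 (SE 0.10, adjusted p = 4.25e-05) and -1.66 (SE 0.21, adjusted p = 0.000142) in LC. HSD17B3 was the 1 of 9 called at 30 days between breeds, higher in LC by 1.15 (SE 0.14, adjusted p = 0.00232). At 120 days edgeR called 0 of 9 between breeds (DESeq2 2, unadjusted p under 0.05 for 5), with a median of 1.88, and CYB5A, which had the smallest adjusted p, was at 1.88 (SE 0.50, adjusted p = 0.0687). For the difference between breeds in the age change edgeR called 0 of 9 too (DESeq2 0, unadjusted p under 0.05 for 4), with a median of 0.95. HSD17B3, which had the smallest adjusted p, went the other way, at -0.71 (SE 0.26, adjusted p = 0.117).

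The 12 peritubular and stromal markers summed to 4859, 4718 and 4646 in Ha, 663, 447 and 344 in Hb, 7045, 6299.8 and 7738 in La and 3192, 3156 and 2736 in Lb in CPM. COL3A1 had the highest FPKM in each 30-day library, and COL3A1, TAGLN or ACTA2 in the 120-day libraries. In the sum Hb was lowest, with no overlap with any other group, and Lb lay between Hb and the 30-day groups. In HZ 9 fell and 3 were not called (median -1.80), among them the collagen COL1A1 at -4.99 (SE 0.33, adjusted p = 1.78e-05) and the proteoglycan DCN at -2.11 (SE 0.17, adjusted p = 4.19e-05). In LC 5 fell, 2 rose and 5 were not called (median -0.97), with DCN at -1.91 (SE 0.10, adjusted p = 1.08e-06), the proteoglycan LUM at -2.88 (SE 0.25, adjusted p = 1.63e-05), and the smooth muscle genes ACTA2 and CNN1 at 1.42 (SE 0.18, adjusted p = 0.000144) and 1.08 (SE 0.21, adjusted p = 0.00172). At 30 days edgeR called 0 of 12 between breeds (DESeq2 0, unadjusted p under 0.05 for 8), with DCN at 0.66 (SE 0.11, adjusted p = 0.00592). At 120 days 6 of 12 were higher in LC and 0 lower (DESeq2 called 7, median 1.66), with COL1A1 at 4.53 (SE 0.26, adjusted p = 0.000951) and ACTA2 at 1.957 (SE 0.24, adjusted p = 0.00953). The age change differed between breeds for 6 of 12 (DESeq2 called 5), all above 0, with COL1A1 at 4.02 (SE 0.35, adjusted p = 0.000372) and ACTA2 at 2.54 (SE 0.25, adjusted p = 0.00114).

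Endothelial markers, 7 genes with VWF the highest by FPKM in each library, summed to 739, 744 and 676 in Ha, 191, 332 and 206 in Hb, 869, 690.1 and 831 in La and 338, 529 and 302 in Lb in CPM. All 7 fell in HZ (median -1.75, PECAM1 -3.18 (SE 0.17, adjusted p = 7.10e-06), KDR -1.75 (SE 0.21, adjusted p = 0.000268)), and 5 fell in LC (median -1.25, KDR -1.63 (SE 0.15, adjusted p = 2.39e-05), TEK -1.65 (SE 0.22, adjusted p = 0.000194)). Between breeds edgeR called 0 of 7 at 30 days (DESeq2 0, unadjusted p under 0.05 for 2, PECAM1 -0.56 (SE 0.14, adjusted p = 0.0267)) and 1 at 120 days (PECAM1 1.41 (SE 0.32, adjusted p = 0.0484)), which was also the 1 with a called difference in the age change (1.92 (SE 0.37, adjusted p = 0.0149)). The 5 macrophage markers, with CSF1R the highest by FPKM in each LC library and CSF1R or CD163 in HZ, summed to 124, 101 and 106 in Ha, 17.5, 20.1 and 10.7 in Hb, 122, 107 and 115 in La and 21.3, 37.8 and 35.9 in Lb in CPM. All 5 fell in HZ (median -3.01, CD163 -3.01 (SE 0.20, adjusted p = 1.98e-05), AIF1 -3.75 (SE 0.42, adjusted p = 0.000183)) and 4 fell in LC (median -1.80, CD163 -2.53 (SE 0.28, adjusted p = 6.47e-05), AIF1 -1.80 (SE 0.27, adjusted p = 0.000425)). Between breeds 0 of 5 were called by edgeR at 30 days (DESeq2 0, unadjusted p under 0.05 for 1, CSF1R 0.31 (SE 0.13, adjusted p = 0.129)) and AIF1 at 120 days (DESeq2 called 2, AIF1 2.17 (SE 0.48, adjusted p = 0.0447)), which also differed in its age change (1.94 (SE 0.45, adjusted p = 0.0286)). Both lists were thus lower in each 120-day library than in each 30-day library.

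Germ cell markers were compared as 3 lists. The 11 spermatogonial markers, with the highest FPKM for DAZL in each Ha library, ZBTB16 or KIT in La and DDX4 in each 120-day library, summed to 369, 363 and 304 in Ha, 857, 820.3 and 817 in Hb, 223, 222 and 231 in La and 701, 638 and 657 in Lb in CPM, higher at 120 days in both breeds without overlap. Without DDX4 the sum was 349, 341 and 285 in Ha and 228, 309 and 247 in Hb, lower on average at 120 days with overlap, and 211, 210.2 and 215 in La and 285, 271 and 267 in Lb, higher at 120 days without overlap. This split was made after the values were seen. Within the list the direction was mixed, with 3 up and 6 down in HZ (DESeq2 called 8 in all, median -1.01) and 4 up and 5 down in LC (median -0.53). The RNA helicase DDX4 rose by 4.79 (SE 0.16, adjusted p = 1.72e-06) and 4.91 (SE 0.15, adjusted p = 6.78e-08), while GFRA1, the GDNF receptor of stem cells, fell, at -2.15 (SE 0.41, adjusted p = 0.00252) and -1.81 (SE 0.27, adjusted p = 0.000389). DAZL, an RNA-binding protein, was lower in LC at 30 days, at -1.66 (SE 0.22, adjusted p = 0.00298), the 1 of 10 called there. At 120 days edgeR called 0 of 10 (DESeq2 0, unadjusted p under 0.05 for 2), with a median of 0.18. DDX4, which had the smallest adjusted p there, went the other way, at -0.50 (SE 0.13, adjusted p = 0.0628). DAZL and KIT were the 2 of 11 whose age change differed between breeds, at 1.53 (SE 0.27, adjusted p = 0.0104) and 1.299 (SE 0.34, adjusted p = 0.0410).

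Spermatocyte markers, 8 genes, summed to 31.7, 35.6 and 19.9 in Ha, 783, 676 and 651 in Hb, 16.1, 14.1 and 12.7 in La and 502, 485 and 494 in Lb in CPM, with MEIOB the highest by FPKM in each La library, PIWIL1 in each 120-day library and either in Ha. All 8 rose in both breeds (medians 3.58 and 4.26), with PIWIL1, which guards the genome against transposons, at 5.83 (SE 0.31, adjusted p = 7.44e-06) and 6.49 (SE 0.12, adjusted p = 2.81e-08). At 30 days 4 of 8 were lower in LC, among them SYCP2 of the synaptonemal complex at -1.29 (SE 0.29, adjusted p = 0.0188) and HORMAD1 at -1.69 (SE 0.38, adjusted p = 0.0188). At 120 days edgeR called 0 of 8 between breeds (DESeq2 1, unadjusted p under 0.05 for 4, PIWIL1 -0.51 (SE 0.13, adjusted p = 0.0568)), and 0 of 8 for the difference in the age change (DESeq2 1, unadjusted p under 0.05 for 4, HORMAD1 1.26 (SE 0.41, adjusted p = 0.0832)). The 10 spermatid markers, with PRM1 the highest by FPKM in each library but Ha1, summed to 4.99, 5.54 and 6.48 in Ha, 6524, 5789 and 8232 in Hb, 8.87, 7.74 and 4.41 in La and 4193, 3452 and 3154 in Lb in CPM. All 9 tested rose in both breeds, with fitted medians of 11.06 and 9.25, and 10.74 and 9.19 where genes with at most 3 counts in each 30-day library were set at their lower bound. At 30 days edgeR called 0 of the 5 tested between breeds (DESeq2 0, unadjusted p under 0.05 for 0), with a median of 0.73. SPACA1, which had the smallest adjusted p there, went the other way, at -0.62 (SE 0.27, adjusted p = 0.139). At 120 days the sperm-tail gene AKAP4 was lower in LC at -1.10 (SE 0.21, adjusted p = 0.0283), 1 of 10. PRM1, which packs sperm DNA, was 1 of 2 with a called difference in the age change, -1.83 (SE 0.44, adjusted p = 0.0322).

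Adrenal-like cells, a minor steroid-making population, were followed by MC2R and MRAP, 2 of the 3 listed genes, since CYP11B1 had no match by symbol. Their summed CPM was 25.9, 14.1 and 25.7 in Ha, 5.97, 1.07 and 3.82 in Hb, 35.3, 32.2 and 31.5 in La and 8.60, 11.2 and 5.18 in Lb, most of it MRAP. MC2R had at most 14 counts in a library and was not tested. Its mean CPM was higher at 120 days, the reverse of MRAP, at 0.0647 in Ha, 0.229 in Hb, 0.140 in La and 0.411 in Lb. MRAP, the accessory protein of the ACTH receptor and the 1 gene tested, fell in both breeds, at -2.69 (SE 0.63, adjusted p = 0.00647) and -2.04 (SE 0.26, adjusted p = 0.000152). It was not called between breeds at 30 days (0.59 (SE 0.22, adjusted p = 0.0919)) or 120 days (1.29 (SE 0.61, adjusted p = 0.233)), nor for the difference in the age change (0.65 (SE 0.69, adjusted p = 0.611)). DESeq2 did not call it in these 3 either, and its unadjusted p was under 0.05 at 30 days alone. No marker of the 9 cell types was at 0 in all libraries of any group.

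**Figure D4:**
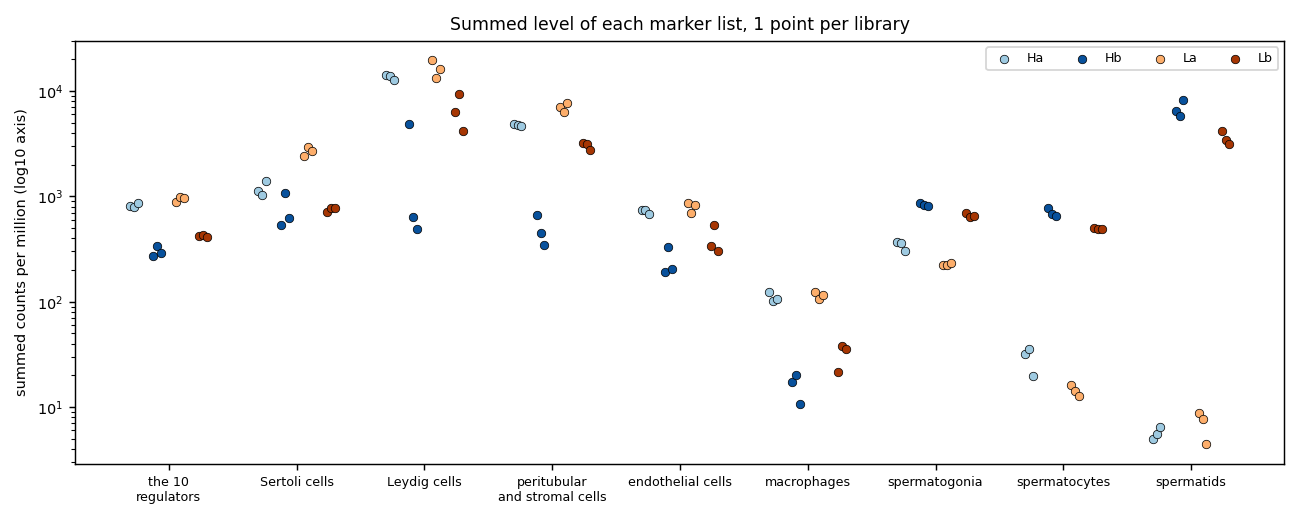
Summed CPM (vertical axis, log10 scale) of the 10 transcription factors and of 8 cell type marker lists, with 1 point per library and the groups in the order Ha, Hb, La and Lb from left to right. The sum of the transcription factors runs from 271 to 341 CPM in Hb and from 794 to 864 CPM in Ha, while that of the spermatid markers runs from 4.41 CPM in La to 8232 CPM in Hb.

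Other regulators of the gonadal ridge and the supporting cells were compared as a list of 11 genes. The list summed to 141, 157 and 174 in Ha, 319, 238 and 301 in Hb, 167, 167 and 178 in La and 221, 206 and 171 in Lb in CPM, and ETV5 had the highest FPKM in each library. In the sum each Hb library was above each Ha library, while La and Lb overlapped. Of 7 tested in HZ, 1 rose and 6 fell (median -1.70), and of 8 in LC, 1 rose and 5 fell (median -1.43). The sum and the median thus went in opposite directions in HZ. ETV5, which acts in the stem cell niche, was the gene that rose, by 1.82 (SE 0.17, adjusted p = 8.21e-05) in HZ and 1.24 (SE 0.14, adjusted p = 6.45e-05) in LC. ZFPM2, the GATA4 cofactor, fell at -2.95 (SE 0.43, adjusted p = 0.000646) in HZ and -2.83 (SE 0.34, adjusted p = 0.000114) in LC, and LHX9 fell at -1.37 (SE 0.19, adjusted p = 0.000300) in LC. At 30 days 2 of 8 were higher in LC and SIX4 was lower, at -1.35 (SE 0.34, adjusted p = 0.0282). At 120 days SIX4 was the 1 of 6 that edgeR called between breeds (DESeq2 called 2), -2.36 (SE 0.42, adjusted p = 0.0244). For the difference in the age change edgeR called 0 of 8 (DESeq2 0, unadjusted p under 0.05 for 1), with a median of 0.13. ETV5 had the smallest adjusted p and went the other way, at -0.59 (SE 0.22, adjusted p = 0.130). GATA1 was at 0 in all libraries of Hb, La and Lb, and FOXL2, the ovarian counterpart of SOX9, was at 0 in those of Hb and Lb.

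SRY, the Y-linked gene that turns on SOX9 in the embryo, had counts of 16.0, 14.4 and 15.3 in La and was at 0 in all 3 Ha libraries. In Hb its counts were 0, 1 and 0, and in Lb 3.25, 0 and 14.5. At 30 days SRY was called, at least 5.62-fold higher in LC, with 3 counts in each library as the floor. SOX10, a relative of SOX9, had counts of 38, 35 and 35 in Ha and 1, 2 and 2 in Hb. It fell at least 8.26-fold in HZ against the same floor. In LC its counts were 72, 47 and 84 in La and 4, 10 and 11 in Lb, and at 30 days it was higher in LC by 1.05 (SE 0.26, adjusted p = 0.0256).

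Other interstitial regulators, 9 genes, summed to 265, 318 and 264 in Ha, 131, 144 and 126 in Hb, 332, 479 and 459 in La and 170.3, 163 and 166 in Lb in CPM. By FPKM NR5A2 was the highest in each 120-day library and NR3C1 or NR4A1 in the 30-day libraries. In the sum each 120-day library was below each 30-day library. In HZ 8 of 9 fell (median -1.58), with the glucocorticoid receptor NR3C1 at -1.32 (SE 0.12, adjusted p = 7.19e-05) and NR2F1, the close relative of NR2F2, at -2.36 (SE 0.31, adjusted p = 0.000384). In LC 6 of 9 fell (median -1.44), with NR3C1 at -1.44 (SE 0.13, adjusted p = 2.62e-05) and the Notch target HEY1 at -2.69 (SE 0.23, adjusted p = 1.73e-05). At 30 days edgeR called 0 of 9 between breeds (DESeq2 0, unadjusted p under 0.05 for 4), with NR5A2 at 0.58 (SE 0.0933, adjusted p = 0.00570). At 120 days NR4A1, an orphan receptor of Leydig cells, was higher in LC at 1.54 (SE 0.29, adjusted p = 0.0298), 1 of 9. For the difference in the age change edgeR called 0 of 9 (DESeq2 0, unadjusted p under 0.05 for 3), with GLI1 at 0.74 (SE 0.26, adjusted p = 0.104).

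Paralogs of the members, 18 genes of the same families with 20 entries in the table, did not share one direction. The sum was 270.3, 292 and 228 in Ha, 211, 252 and 191 in Hb, 233, 285 and 269 in La and 261, 246 and 262 in Lb in CPM, and the highest FPKM was that of TCF23 in each Ha library and NR5A2 in each La library, while at 120 days it was NR5A2, DMRTC2 or DMRTB1. Of 18 entries tested, 5 rose and 5 fell in HZ (median -0.0846), and 6 rose and 4 fell in LC (median -0.26). Every entry of DMRTC2 was among those that rose in both breeds, so this gene is counted more than once. DMRT2 and DMRTA2, relatives of DMRT1, rose in HZ at 3.23 (SE 0.36, adjusted p = 0.000194) and 4.06 (SE 0.47, adjusted p = 0.000218), and 1 entry of DMRTC2 rose at least 166-fold in LC. MSC, the closest relative of TCF21, fell at -3.52 (SE 0.27, adjusted p = 3.41e-05) in HZ and -2.64 (SE 0.29, adjusted p = 6.49e-05) in LC, and NR2F1 fell at -1.67 (SE 0.21, adjusted p = 0.000135) in LC. DMRTB1, which acts in spermatogonia at the step to meiosis, was at 41.3, 46.6 and 15.7 CPM in Ha and 8.06, 5.17 and 6.60 CPM in La. At 120 days DMRTB1 was at 29.5, 37.1 and 21.4 CPM in Hb and 43.9, 59.1 and 50.0 CPM in Lb. It was lower in LC at 30 days (-2.39 (SE 0.39, adjusted p = 0.00628)), and its age change differed between breeds by 3.18 (SE 0.50, adjusted p = 0.00664). In all, 2 of 15 entries were called at 30 days between breeds, 0 of 15 by edgeR at 120 days (DESeq2 0, unadjusted p under 0.05 for 2, DMRTB1 0.84 (SE 0.24, adjusted p = 0.0778)), and 4 of 19 for the difference in the age change. Among the 4 were entries of DMRTC2, at 3.21 and 3.27, and GATA5, with counts of 62, 5 and 79 in Hb and 0 in each Lb library.

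Over the 12 libraries, members that were lower at 120 days correlated on log2 CPM, as a description only, since the libraries share age and breed. NR5A1 with GATA4 had Pearson's r = 0.98, while DMRT1 with GATA6 had r = 0.0668. For deviations from the group means of the same 12 libraries, the 4 of 45 pairs with the largest r in size are given. Their r was 0.83 for SOX9 with TCF21, 0.84 for GATA6 with TCF21 and 0.82 for SOX9 with GATA6. It was -0.82 for GATA6 with NR5A1. In the 9 libraries outside Hb, an alternative chosen after seeing the data, these 4 r values were 0.85, 0.78, 0.71 and -0.39, so the last was weaker there. Other pairs were larger in size outside Hb than over the 12 libraries, such as NR0B1 with TCF21, -0.41 over 12 and -0.90 outside Hb, and GATA4 with NR5A1, 0.49 and 0.83.

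The named genes with the highest r to each member on log2 CPM over 12 libraries, among 15134 mRNAs compared, were as follows. For SOX9 they were ERV3-1 (0.97), HMBOX1 (0.97) and FAM26E (0.96). For SOX8 they were CINP (0.99), AJUBA (0.98) and C2H19orf60 (0.98). For WT1 they were ND4 (0.96), ECSCR (0.95) and FBLIM1 (0.94). None of these 9 genes is on the lists of regulators or markers used here. DMRT1 was followed by RNPS1 (0.94), PFAS (0.92) and HAUS4 (0.92). GATA4 had PRRG3 (0.99), OAF (0.99) and OBSL1 (0.99) nearest to it, and GATA6 had EIF2AK3 (0.99), MAP3K1 (0.99) and CACNG4 (0.99). The highest r values were thus lower for DMRT1 than for GATA4 and GATA6. NR5A1 went most closely with BACE2 (0.997), ADAM12 (0.996) and PQLC1 (0.99). NR0B1 went most closely with TOMM5 (0.95), SLC6A8 (0.95) and CEMIP (0.93). Nearest to NR2F2 were SLC29A1 (0.995), SMPD1 (0.99) and LRP1 (0.99), and nearest to TCF21 were SLC8A1 (0.996), SYT10 (0.99) and UBQLN2 (0.99).

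Of 10706 lncRNA transcripts with a position, 5 lay within 10 kb of a member, near 3 members. LOC102161978, with 2 transcripts (chromosome 2, 28358562 to 28411612), overlaps WT1 by 146 bp, and whether the counting used strand is not given in the sources used here, so reads in the overlap cannot be assigned. Its counts summed over both transcripts were 215, 201 and 195 in Ha and 46, 143 and 56 in Hb. In LC they were 162, 184 and 188 in La and 116, 77 and 134 in Lb. All 120-day libraries were below all 30-day libraries within each breed. In Ha vs Hb 1 of the 2 transcripts, XR_002341531.1, was called, at -1.36 (SE 0.36, adjusted p = 0.0139), beside 56.2% of 2909 lncRNAs. The other, XR_002341530.1, was at -1.68 (SE 0.63, adjusted p = 0.0531), not called. The number called was 0 without Hb3, 2 without Hb2 and 0 with library sizes of the mRNA table. In La vs Lb XR_002341530.1 was called, at -1.69 (SE 0.38, adjusted p = 0.00541), beside 61.1% of 2988, and XR_002341531.1 was at -0.72 (SE 0.41, adjusted p = 0.161). The HZ and LC changes of XR_002341530.1 were thus close, and a difference between breeds in the age change of either transcript was not tested. Between breeds edgeR called 0 at 30 days, beside 6.35% of 2096, and 0 at 120 days, beside 3.14% of 3213, and none had an unadjusted p under 0.05. LOC110257744, 125 bp from NR0B1, had summed counts of 3 to 28 and was not called where tested. LOC110255645, 6526 bp from DMRT1, had at most 2 counts in a library and was not tested.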

How the data were processed

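RNA of whole testis from 12 boars was sequenced by the authors after removal of ribosomal RNA. Per the submitters' notes, reads were trimmed with fastp 0.18.0, freed of ribosomal reads with Bowtie2 2.2.8, mapped to Sscrofa11.1 with HISAT2 2.1.0 and assembled with StringTie 1.3.4. The deposited tables hold, for every lncRNA transcript and every gene's mRNA, an estimated count that is not normalized and an FPKM. FPKM was computed with StringTie, and how the estimated counts were made is not given in the sources used here. Positions came from RefSeq for the same build.

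Estimated counts were rounded to whole numbers. For each comparison the 6 libraries were filtered with filterByExpr (minimum count 10), scaled with TMM and tested in edgeR 4.0.16 (quasi-likelihood, R 4.3.3), with Benjamini-Hochberg adjustment over all genes tested. The thresholds were an adjusted p of 0.05 and a log2 fold change of 1 in size. The difference between breeds in the age change was tested as the interaction in a fit of all 12 libraries. Each SE is the log2 fold change divided by the square root of the F statistic. A group whose libraries all hold 3 counts or fewer is at the floor, and folds against it are lower bounds. Ratios used log2 of counts plus 0.5, with age permuted within breed and breed within age. The lncRNA table was fitted on its own. Scripts were tested on simulated data, and Python 3.11.15 was used for summaries.

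Members and gene lists were chosen with earlier results of these data known. Named genes are the 10 members, up to 2 called genes in each direction with the smallest adjusted p of each list (with none called, the 1 with the smallest), the 3 genes nearest in pattern to each member, and lncRNAs within 10 kb. INSL3, AMH, DHH, SRY, SOX10, GATA5, DMRTB1 and 2 lncRNAs farther than 10 kb were singled out after their values were seen. Other lncRNAs farther than 10 kb are named where edgeR called them with age. The lists were other regulators of the supporting cells and gonadal ridge (SRY, CBX2, LHX9, EMX2, ZFPM2, SIX4, GATA1, SOX10, ETV5, FOXL2, RUNX1), other interstitial regulators (NR4A1, NR2F1, GLI1, GLI2, HES1, HEY1, NR5A2, NR3C1, ESR1) and paralogs (SOX10, GATA1, GATA2, GATA3, GATA5, NR5A2, NR0B2, NR2F1, NR2F6, DMRT2, DMRT3, DMRTA1, DMRTA2, DMRTB1, DMRTC2, MSC, TCF23, TCF24). Further genes planned for the first 2 lists are not reported here, and sums, medians and counts leave them out. Marker lists were Sertoli cells (PTGDS, KITLG, INHBB, INHA, GDNF, FSHR, FGF9, DHH, CLDN11, AMH), Leydig cells (STAR, SCARB1, LHCGR, INSL3, HSD3B1, HSD17B3, CYP17A1, CYP11A1, CYB5A), peritubular and stromal cells (TAGLN, PDGFRB, PDGFRA, MYH11, LUM, DES, DCN, COL3A1, COL1A2, COL1A1, CNN1, ACTA2), endothelial cells (VWF, TIE1, TEK, PECAM1, KDR, EMCN, CDH5), macrophages (CSF1R, CD68, CD163, CD14, AIF1), spermatogonia (ZBTB16, UTF1, STRA8, SALL4, NANOS3, NANOS2, KIT, ID4, GFRA1, DDX4, DAZL), spermatocytes (SYCP3, SYCP2, SYCP1, SPO11, PIWIL1, MEIOB, HORMAD1, DMC1), spermatids (TSSK6, TNP2, TNP1, SPACA3, SPACA1, PRM2, PRM1, ODF1, AKAP4, ACRV1) and adrenal-like cells (MRAP, MC2R, CYP11B1).

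Alternatives were DESeq2 1.42.0, library totals or upper-quartile factors in place of TMM, no filter, limma 3.58.1 on log2(FPKM + 1) and log2(FPKM + 0.1), all 12 libraries in one fit, the replicate number as a block and each library left out in turn. Ratios were also taken with a pseudocount of 1 and from FPKM.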

Additional observations from a re-analysis of the deposited data

Results flagged for a closer look

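The change of NR0B1 with age differed between the breeds when that difference was itself tested. It rose from La to Lb, was -0.41 on the log2 scale from Ha to Hb (-0.87 on log2(FPKM + 0.1)), and the LC change minus the HZ change was 2.07 (SE 0.33, adjusted p = 0.00740) by edgeR. Its adjusted p ran from 1.31e-06 to 0.0224 over the alternatives.

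The change of DMRT1 with age also differed between the breeds by the same test. In CPM it was lower at 120 days in all 3 HZ libraries and higher at 120 days in all 3 LC libraries, but in FPKM the LC libraries of both ages overlapped, and its rise in LC went from 0.42 to 0.10 (adjusted p = 0.451) on log2(FPKM + 0.1). The LC change minus the HZ change was 1.13 (SE 0.22, adjusted p = 0.0154) by edgeR. Its adjusted p ran from 0.000185 to 0.0423 over the alternatives. DMRT1 is made by Sertoli cells and by spermatogonia. By edgeR the age change also differed for DAZL (1.53) and KIT (1.299), 2 of 11 spermatogonial markers with a median of 0.32, beside 5.14% of all mRNAs. It differed for 1 of 9 Sertoli markers, GDNF (-1.90, DESeq2 called 3). Those that edgeR did not call went both ways. They were DHH (1.10), KITLG (1.02), CLDN11 (0.71), INHBB (0.26), PTGDS (-0.52), FSHR (-1.04), INHA (-1.07) and AMH (-1.475). The DMRT1 paralog DMRTB1 (3.18) was among the 4 of 19 paralog entries called. The share of each cell type in the DMRT1 difference was not tested.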

How the results depend on the processing

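The counts of members called were 6 from Ha to Hb, 6 from La to Lb, 1 in Ha vs La, 0 in Hb vs Lb and 2 for the difference between breeds in the age change. With the replicate number as a block they were 6, 6, 1, 0 and 2, beside 8430, 7770, 1030, 154 and 672 of all mRNAs. Taken over all mRNAs kept by the filter, libraries with the same number did not deviate together (r from -0.0222 to 0.0527). Such an r cannot exclude a shared factor that acts on part of the mRNAs, so it does not settle whether the numbers pair the boars. With library totals, upper-quartile factors, log2(FPKM + 1) and log2(FPKM + 0.1) the count from Ha to Hb was 7, 7, 7 and 8. It stood beside 9017 and 9068 of 16548 mRNAs, and 6678 and 9669 of 17096. From La to Lb it was 7, 8, 7 and 8, beside 8199 and 8428 of 16637 mRNAs, and 5607 and 8579 of 17170. With 1 library left out the count from La to Lb was 6 to 7, beside 7843 to 8126 mRNAs. The count for Ha vs La was 0 with limma on log2(FPKM + 1), beside 508 of 16188 mRNAs. It was 1 to 2 with 1 library left out, beside 831 to 1466 mRNAs. The count for Hb vs Lb was 1 with limma on log2(FPKM + 0.1), beside 840 of 16799 mRNAs. It was 0 to 1 with 1 library left out, beside 97 to 1029 mRNAs. The count of lncRNAs called in Ha vs Hb was 0 with the library sizes of the mRNA table, and 0 to 2 with 1 library left out. The cause of these changes was not tested.

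Of the fold changes of members, 359 of the values with other settings and 343 of those with 1 library left out kept their direction and their side of the threshold. Of the former, 14 newly passed the threshold, 3 no longer did and 6 turned sign, and of the latter these were 5, 0 and 6. In Ha vs La, SOX8 had a log2 fold change of 0.00116, which was -0.0364 with library totals, -0.0129 on log2(FPKM + 1), -0.0573 on log2(FPKM + 0.1), -0.0506 with the replicate block and -0.36 to 0.23 with 1 library left out. With 1 library left out in Ha vs La, WT1 ran from -0.0373 to 0.21 and NR2F2 from -0.12 to 7.10e-05. There GATA4 ran from 0.0843 to 0.25, NR5A1 from 0.0412 to 0.13 and TCF21 from 0.0879 to 0.21, without a change of sign. For SOX9 the difference between breeds in the age change was -0.17, but 0.0336 on log2(FPKM + 1) and 0.0504 on log2(FPKM + 0.1). None of these values was called in either direction, and the cause was not tested. The log2 ratio of GATA4 to GATA6 between breeds ran from -0.26 to 0.0516 with 1 library left out, and that of SOX9 to SOX8 between ages from 1.45 to 1.72.

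Over all mRNAs, the number called moved by more than 1.5 times in 3 comparisons. In Hb vs Lb it was 628, and 1176 with DESeq2, 1258 with all 12 libraries in one fit, 154 with the replicate block and 97 to 1029 with 1 library left out. In Ha vs La it was 1192, and 508 with limma on log2(FPKM + 1). For the difference between breeds in the age change it was 890, and 1364 with DESeq2, 1370 with limma on log2(FPKM + 0.1) and 437 to 1242 with 1 library left out. Depth limited SOX8, which was left out of Hb vs Lb by the filter on low counts.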

Other observations

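Within 100 kb of a member lay 30 lncRNA transcripts, near 8 members, counting the 5 within 10 kb. Of those farther than 10 kb, 2 were singled out after their values were seen. An assembled lncRNA without a symbol lies on chromosome 3, 40877447 to 40882195, 47362 bp from SOX8. It had 0, 0 and 0 counts in Ha, 12, 37 and 26 in Hb, 0, 0 and 2 in La and 28, 37 and 30 in Lb. Each 120-day library was thus above each 30-day library, the reverse of SOX8, and a link between them was not tested. A transcript of LOC110261613 lies on chromosome 7, 83161099 to 83164807, 70849 bp from NR2F2. It had 70, 52 and 73 counts in Ha, 25, 46 and 16 in Hb, 105, 80 and 75 in La and 20, 21 and 27 in Lb. Its log2 fold change was -1.37 (SE 0.44, adjusted p = 0.0309) in HZ and -2.33 (SE 0.35, adjusted p = 0.000787) in LC by edgeR, lower at 120 days as NR2F2 was. With age 56.2% of lncRNAs were called in HZ and 61.1% in LC. Also called with age were XR_002337046.1, 88829 bp from SOX9, and XR_002345968.1, 98862 bp from NR2F2. The former was at 1.60 (adjusted p = 0.0240) in HZ, where SOX9 was lower, and at 1.17, not called, in LC. The latter was at -1.33, not called, in HZ and -3.08 (adjusted p = 0.000883) in LC.

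DHH, a signal from Sertoli cells to Leydig cells, was at 20.7, 20.7 and 22.5 CPM in Ha and 9.39, 9.75 and 5.08 CPM in Hb. It was at 17.9, 23.7 and 19.8 CPM in La and 18.6, 16.9 and 14.5 CPM in Lb. Hb was below the other groups without overlap. DHH was chosen after its values were seen.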
